A study of Mus musculus with 6 samples.

Results

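A set of 9 noncoding RNA genes was followed through naive CD8 T cells with and without CD103: Malat1, Neat1, Gas5, Snhg1, Snhg5, Snhg6, Snhg8, Snhg12 and Zfas1. They were taken by gene symbol from the deposited table, and all 9 were found among its 55450 genes and all 9 had enough counts to be tested. Poly(A)-tailed RNA had been sequenced from lymph node CD8 T cells sorted as negative for Ly6C and CXCR3, in 3 libraries from WT mice (C57BL/6) and 3 from CD103KO mice (Itgae-/-). Itgae encodes CD103, the integrin alpha E chain that binds E-cadherin. The sources used here give neither the age and sex of the mice nor whether each library came from its own animal, so that p-values measure the spread between these libraries. The comparison asks how the resting cells differ in these RNAs when CD103 is missing.

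Small nucleolar RNAs (snoRNAs) guide the chemical modification of ribosomal and spliceosomal RNA. In mammals most of them are cut out of the introns of a host transcript after splicing, and Gas5, the Snhg genes and Zfas1 are hosts whose spliced exons code for no conserved protein. Several host transcripts begin with a run of pyrimidines, the 5′ terminal oligopyrimidine tract that also starts the mRNAs of ribosomal proteins, and their spliced forms are known targets of nonsense-mediated decay, so that they gather when growth and translation stop. Gas5 (growth arrest-specific 5) is named for that behaviour and has been studied in resting lymphocytes. Malat1 and Neat1 stay in the nucleus. Malat1 is found at nuclear speckles, stores of splicing factors, and Neat1 is the RNA scaffold of paraspeckles.

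None of the 9 RNAs passed the test between CD103KO and WT, and in each of them the 2 groups overlapped. Among all tested genes 0.223% passed, and the groups did not overlap in 7.36% with CD103KO lower and in 6.82% with CD103KO higher. Gas5, with the most counts, averaged 122 ± 6.21 CPM in the WT libraries (counts scaled to a common library size, CPM; mean ± SD, n = 3) and 121 ± 6.49 CPM (n = 3) in the CD103KO libraries. The sum of the 7 snoRNA hosts was 219 ± 11.5 CPM for WT and 215 ± 5.72 CPM for CD103KO. Malat1 had the widest difference, 78.5 ± 20.4 against 53.3 ± 20.1 CPM, and also the widest spread inside each group. Besides their levels, the 9 differed from each other in that spread: Gas5, Snhg6, Snhg8 and Zfas1 varied by less than 1.21-fold over the 6 libraries, and Malat1 by 2.73-fold.

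The hosts were first set beside the snoRNAs they carry. GENCODE M21 places 30 snoRNA gene models at 28 loci inside the 7 hosts, on the strand of the host: 10 in Gas5, 8 in Snhg1, 5 in Snhg12, 3 in Zfas1, 2 in Snhg5 and 1 each in Snhg6 and Snhg8. Most belong to the C/D class, which guides 2′-O-methylation and is held by a C box near its 5′ end and a D box near its 3′ end. The H/ACA class guides pseudouridylation and carries the letters ACA shortly before its 3′ end. A C/D snoRNA of each host that has one, and both of Snhg5, are given here as examples with both boxes. Snhg8 has none of this class. The sequences are from the GENCODE M21 transcripts (GRCm38), 5′ to 3′ in DNA letters, with the C box TGATGA and the D box CTGA in capitals.
Snord47 (Gas5, chr1:161038082-161038158, plus strand): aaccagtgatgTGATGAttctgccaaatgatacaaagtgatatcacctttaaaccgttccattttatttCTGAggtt
Gm22680 (Snhg1, chr19:8725341-8725409, plus strand): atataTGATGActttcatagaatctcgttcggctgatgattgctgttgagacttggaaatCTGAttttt
Snord50a (Snhg5, chr9:88521529-88521600, minus strand): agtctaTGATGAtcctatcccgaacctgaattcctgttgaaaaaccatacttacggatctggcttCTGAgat
Snord50b (Snhg5, chr9:88521797-88521868, minus strand): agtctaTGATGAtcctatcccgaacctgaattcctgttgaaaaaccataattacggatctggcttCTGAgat
Snord87 (Snhg6, chr1:9942463-9942549, minus strand): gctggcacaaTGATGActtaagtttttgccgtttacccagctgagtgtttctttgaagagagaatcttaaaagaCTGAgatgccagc
Snord99 (Snhg12, chr4:132310691-132310764, plus strand): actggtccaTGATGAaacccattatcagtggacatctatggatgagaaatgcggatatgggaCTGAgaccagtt
Snord12 (Zfas1, chr2:167065276-167065365, plus strand): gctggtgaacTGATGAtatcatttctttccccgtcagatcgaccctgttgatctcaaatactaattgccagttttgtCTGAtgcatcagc

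The pair in Snhg5 differed by 1 base of 72, C50A with positions counted from 1 at the 5′ end, Snord50a first. A pair of H/ACA snoRNAs is shown for the other class, with ACA in capitals 3 bases before the end; Snora24 is the only snoRNA of Snhg8.
Snora24 (Snhg8, chr3:123507937-123508066, minus strand): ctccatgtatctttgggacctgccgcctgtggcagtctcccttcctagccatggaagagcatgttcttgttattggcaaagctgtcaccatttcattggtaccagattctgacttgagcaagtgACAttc
Snora61 (Snhg12, chr4:132310240-132310369, plus strand): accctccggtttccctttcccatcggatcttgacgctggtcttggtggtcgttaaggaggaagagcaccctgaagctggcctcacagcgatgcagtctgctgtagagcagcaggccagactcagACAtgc

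Searched on the transcribed strand, 21 of the 30 models held TGATGA in their first 25 bases together with CTGA in their last 20, and 4 held CTGA alone. Another 4 had ACA at its place, all of them in Snhg8 or Snhg12, and Snora44 in Snhg12 had none of these letters there. Among all 1507 snoRNA genes of GENCODE M21 the C and D letters were present together in 20.6% and ACA in 18.3%. By position, 22 of the 30 lay in sequence that is exonic only in retained-intron transcripts, 7 in an exon of another annotated transcript, and Snord87 in an intron of every Snhg6 transcript.

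The snoRNA genes themselves had almost no counts. Of the 30, 21 had 0 counts in all 6 libraries, and the other 9 summed to 112 counts, against 101440 counts of the 7 hosts, or 905.7 host counts for each snoRNA count. A count of 0 allows up to 3 counts, between 0.0313 and 0.0440 CPM per library. Snord22, the snoRNA for which Snhg1 was first described, took 67 of the 112, with 4, 8 and 17 counts in the 3 WT libraries, by replicate number, and 13, 17 and 8 in the 3 CD103KO libraries. Gm22357, a C/D model in Gas5, had 20 counts, with 2, 7 and 9 in the WT libraries and 1, 1 and 0 in the CD103KO libraries. Snora44 in Snhg12 had 9, with 1, 0 and 2 in WT and 0, 3 and 3 in CD103KO. Counts this low were left out of the test. Snhg8, Snhg6 and Snhg5 had 12987, 5289 and 1775 counts over the 6 libraries while their snoRNAs had 0. The same was seen beyond these hosts: 1387 of the 1507 annotated snoRNA genes were listed at 0 in every library, and all 1507 together held 0.000431% to 0.00124% of counts, most in CD103KO replicate 2. Mature snoRNAs are short and carry no poly(A) tail, and the mRNA kit named in the labels takes tailed RNA, so these counts do not measure mature snoRNAs. Reads over a retained intron can be assigned either to the host or to the snoRNA inside it.

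**Figure D1:**
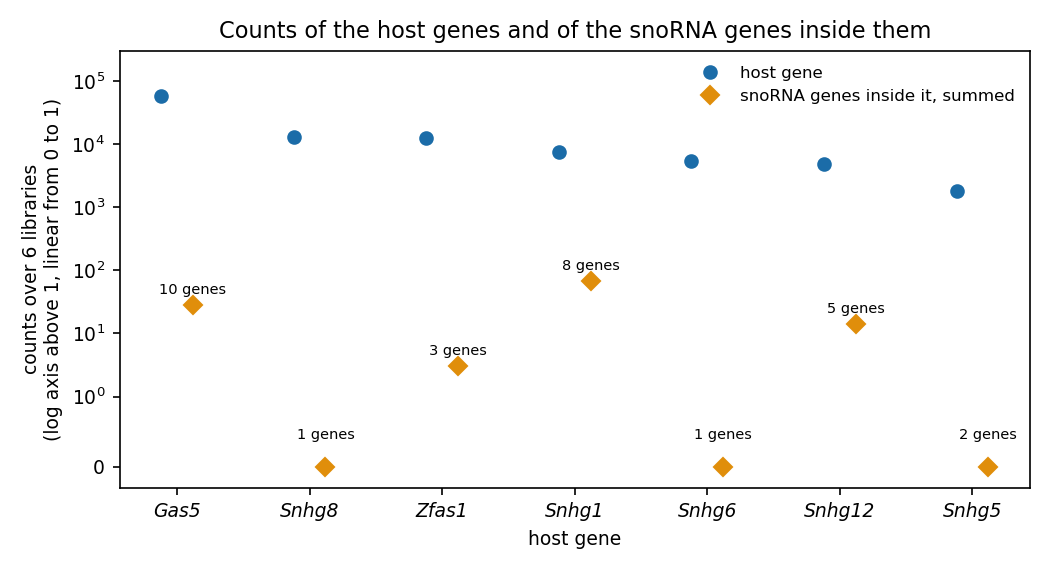
Counts summed over the 6 libraries (vertical axis, logarithmic above 1 and linear below) for each of the 7 host genes (circles) and for the snoRNA gene models inside it (diamonds, with their number). Every host lies far above its snoRNAs, from 56750 against 28 counts in Gas5 to 12987 against 0 in Snhg8.

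The start sites of the hosts were read next, because a pyrimidine run there is the feature that host transcripts are known to share with ribosomal protein mRNAs. RefSeq (GRCm38.p6) gave 8 start windows for 7 of the 9 genes, 2 of them for Gas5, and none for Neat1 and Snhg6. They are shown from 50 bases before the start to 30 bases from it, with the letters TATA in capitals where they lie 40 to 16 bases before the start, and with the longest run of C and T between 5 bases before and 30 bases after the start also in capitals.
Gas5 (first RefSeq start, chr1:161034551-161034630, plus strand): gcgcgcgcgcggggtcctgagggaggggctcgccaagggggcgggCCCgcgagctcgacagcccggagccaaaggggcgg
Gas5 (second RefSeq start, chr1:161035116-161035195, plus strand): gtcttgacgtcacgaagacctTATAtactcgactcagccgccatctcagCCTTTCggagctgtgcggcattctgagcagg
Snhg1 (chr19:8723437-8723516, plus strand): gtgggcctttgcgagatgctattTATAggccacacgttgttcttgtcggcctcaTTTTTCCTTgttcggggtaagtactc
Snhg5 (chr9:88522868-88522947, minus strand): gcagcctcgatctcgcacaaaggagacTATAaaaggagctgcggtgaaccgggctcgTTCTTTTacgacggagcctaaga
Snhg8 (chr3:123508307-123508386, minus strand): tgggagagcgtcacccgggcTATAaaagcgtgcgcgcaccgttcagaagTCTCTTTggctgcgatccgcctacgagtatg
Snhg12 (chr4:132308628-132308707, plus strand): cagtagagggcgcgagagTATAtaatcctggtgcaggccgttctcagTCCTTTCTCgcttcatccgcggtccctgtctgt
Zfas1 (chr2:167062884-167062963, plus strand): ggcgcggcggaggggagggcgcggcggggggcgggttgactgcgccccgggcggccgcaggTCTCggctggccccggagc
Malat1 (chr19:5802643-5802722, minus strand): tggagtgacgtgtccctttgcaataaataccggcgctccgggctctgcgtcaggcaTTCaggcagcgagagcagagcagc

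TATA, which reads the same on both strands, lay in that stretch in 5 of the 8 windows (Gas5 at its second start, Snhg1, Snhg5, Snhg8 and Snhg12) and in 5.91% of all 32851 RefSeq windows. The longest pyrimidine run was 9 bases in Snhg1 and Snhg12, a length reached by 7.59% of all windows. It was 7 bases in Snhg5 and Snhg8 (18.6% of windows) and 6 at the second start of Gas5 (29.5%), beside a median of 4 over all windows. Zfas1, with 4 bases, and Malat1 and the first start of Gas5, with 3 (a length reached by 91.0%), had no TATA there and no longer run than the median window. With the start base as 1 and the base before it as -1, the longest run began at -3 in Snhg12 and -1 in Snhg8. It began at -1 at the second start of Gas5 and at -5 at the first. In Snhg1 it began at 5, in Malat1 at 7, in Snhg5 at 8 and in Zfas1 at 12. The run could lie anywhere in the stretch searched, so its length does not show that a transcript begins with one. All of these are matches of letters and not measured start sites.

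Across libraries and markers, the labels were checked first. Total counts were 68292475 to 94347034 per library, highest in WT replicate 2, and 1 count equals 0.0104 to 0.0147 CPM. Itgae averaged 482 ± 19.3 CPM for WT and 65.6 ± 3.90 CPM for CD103KO (SD, n = 3 each), and none of the 9 genes lies on its chromosome, 11. Cd8a (1438 to 1506 CPM), Cd8b1 (1678 to 1784 CPM) and Cd3e (399 to 421 CPM) were high in every library. WT replicates 1 and 2 stood apart, with 66.9 and 79.7 CPM of Xist and no count of the Y-linked Ddx3y, whereas the other 4 libraries had at most 0.0272 CPM of Xist and 47.8 to 56.2 CPM of Ddx3y. The libraries with Xist reads are all WT, so that genotype partly coincides with sex as read from Xist and Ddx3y. The comparison of genotypes cannot fully tell these apart. Of 19 tested B cell markers, all had a positive log2 fold change and 3 (Fcer2a, Cd79a and Ms4a1) passed the test with edgeR, 10 with DESeq2. Their median log2 fold change was 1.12, and 14 were higher at an unadjusted p of 0.05 with edgeR (4.53% of all genes). In 14 all CD103KO libraries were above all WT libraries (6.82% of all genes). Summed, the B cell list gave 629 to 664 CPM for WT and 659 to 691 CPM for CD103KO. The largest part of it was Ighm, with means of 450 CPM for WT and 453 CPM for CD103KO. The erythrocyte and platelet list came to 33.0 to 50.1 CPM for WT and 57.5 to 93.1 CPM for CD103KO, with 2 of its 9 genes at 0 everywhere, and 0 of 5 tested passed with edgeR (4 at an unadjusted p of 0.05; 3 with DESeq2). Myeloid and dendritic markers summed to 44.9 to 53.6 CPM, with 2 of 15 at 0 and 0 of 10 tested passing with edgeR or DESeq2 or reaching an unadjusted p of 0.05. The part of these other cells in the levels below was not tested, and in bulk RNA fewer cells of a type cannot be told from less RNA per cell.

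Malat1 (ENSMUSG00000092341.3, chromosome 19, 5795690 to 5802672, minus strand, GRCm38; annotated as a lincRNA) was at 61.9, 101.3 and 72.4 CPM in the WT libraries, in the order of replicates 1, 2 and 3 that is kept below. The CD103KO libraries had 75.8, 46.8 and 37.1 CPM. CD103KO replicate 1 was above 2 of the 3 WT libraries, so the groups overlapped, while the other CD103KO libraries lay below all of WT. The log2 fold change of CD103KO over WT was -0.56 (SE 0.25, 95% interval -1.14 to 0.01). It did not pass: the adjusted p was 0.583 (edgeR quasi-likelihood test, Benjamini-Hochberg over 13470 genes; 0.0548 before adjustment) and 0.837 with DESeq2. As a ratio, the interval runs from 0.455 to 1.01 of the WT level. Single libraries carried much of it: the log2 fold change was -0.91 without CD103KO replicate 1 (edgeR adjusted p = 0.124) and -0.34 without WT replicate 2 (edgeR adjusted p = 0.854). Among only the 4 libraries without Xist reads, which leaves 1 WT library, it was -0.44 (edgeR adjusted p = 0.842).

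From 2807 to 9701 Malat1 counts per library, counting alone gives a coefficient of variation of 1.38%, against 26.0% between WT libraries and 37.8% between CD103KO libraries. The exact Poisson interval was 99.3 to 103.4 CPM in WT replicate 2 and 35.8 to 38.5 CPM in CD103KO replicate 3, and covers counting error only. WT replicate 2, the highest library in Malat1, also had the most total counts, and the part of that in its level was not tested. The ratio of highest to lowest library, 2.73, was larger than that of 98.9% of the 10767 tested genes with a mean of at least 1 CPM, whose median ratio was 1.17. Malat1 made up 0.00369% to 0.0103% of counts. Its mature 3′ end is cut by RNase P and carries no poly(A) tail, and the kit takes tailed RNA, and how much of the Malat1 of each sample was captured was not measured. Other RNAs made without a tail were read beside Malat1. Rn7sk, the 7SK RNA, had 7.32, 7.80 and 14.1 CPM in WT libraries against 13.4, 20.2 and 8.85 CPM in CD103KO libraries, and Rpph1, the RNA of RNase P, had 1.43, 1.35 and 3.26 CPM against 2.67, 4.79 and 1.72 CPM. Both were highest in CD103KO replicate 2, and the relation of these levels to the capture of Malat1 was not tested. Rmrp, the RNA of RNase MRP, has a pair of overlapping gene models that the counting could split, 1 highest in WT replicate 3 (1.67 CPM) and 1 in CD103KO replicate 1 (1.24 CPM).

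Neat1 (ENSMUSG00000092274.3, chromosome 19, 5824708 to 5845478, minus strand; a lincRNA) lies 22035 bases from Malat1 on the same strand. Its levels were 10.6, 13.6 and 10.7 CPM in WT libraries and 13.5, 11.03 and 8.28 CPM in CD103KO libraries. The highest and the lowest library were those of Malat1, WT replicate 2 and CD103KO replicate 3, and the groups overlapped. The log2 fold change was -0.09 (SE 0.17, 95% interval -0.48 to 0.29; edgeR adjusted p = 0.908), and among the 4 libraries without Xist reads it was 0.04 (edgeR adjusted p = 0.985). Neat1 varied 1.65-fold over the libraries, more than 93.9% of genes of at least 1 CPM. Its short form is polyadenylated and its long form is not, and the table, which gives 1 value per gene, does not separate them. Malat1 over Neat1, a ratio chosen after its values were seen, was 5.85, 7.43 and 6.78 in WT and 5.62, 4.25 and 4.48 in CD103KO. The groups of that ratio did not overlap, and no test was made of it. Frmd8, the nearest other tested gene, 4224 bases from Neat1, had a log2 fold change of 0.11 (edgeR adjusted p = 0.656).

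**Figure D2:**
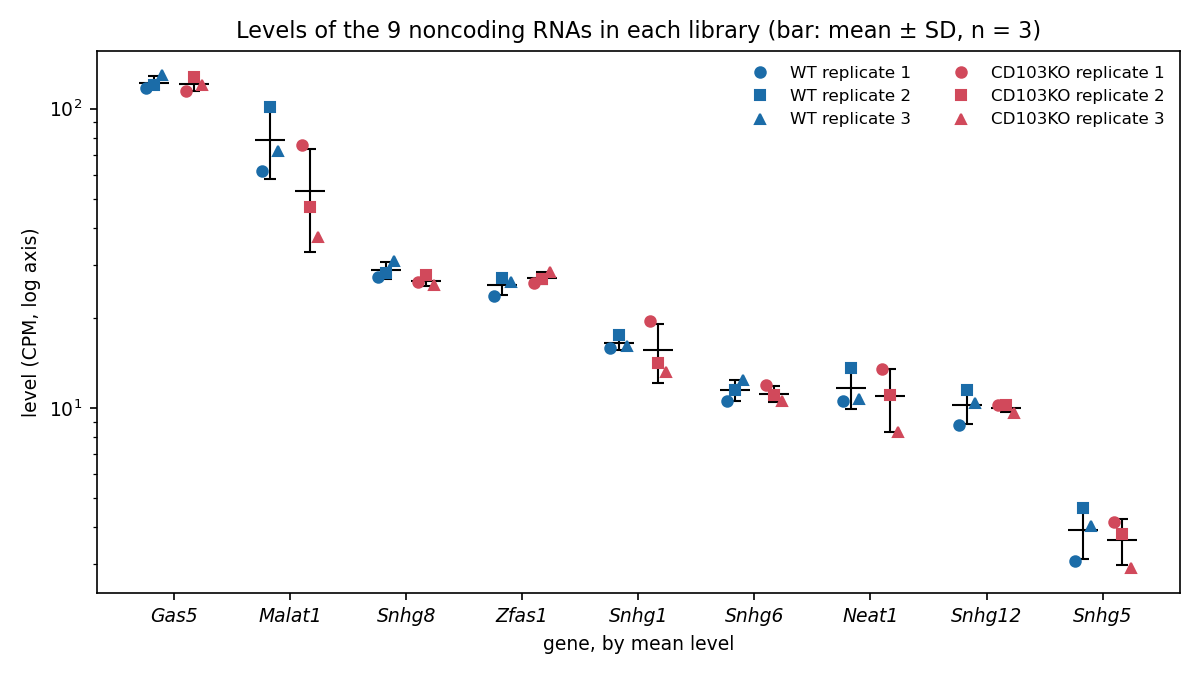
Level of each RNA in each library (vertical axis, CPM on a log scale, not corrected for length), with WT in blue and CD103KO in red, the replicate by symbol, and bars for mean ± SD (n = 3). Malat1 spans 37.1 to 101.3 CPM, Gas5 only 115 to 129 CPM, and WT and CD103KO points overlap in all 9 genes.

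Gas5 (ENSMUSG00000053332.13, chromosome 1, 161034422 to 161038539, plus strand) has 25 annotated transcripts, 20 of them with a retained intron. Its levels were 117, 120.2 and 129 CPM in WT libraries and 115, 128 and 120.0 CPM in CD103KO libraries. The 2 groups covered nearly the same range, and the ratio of highest to lowest library was 1.13. The log2 fold change was -0.02 (SE 0.05, edgeR adjusted p = 0.945), and its 95% interval, -0.14 to 0.10, corresponds to 0.908 to 1.07 of the WT level. Gas5 made up 53.9% to 57.6% of the summed CPM of the 7 hosts. Without Gas5 the sum of the other 6 hosts was 96.6 ± 6.33 CPM for WT and 94.2 ± 3.87 CPM for CD103KO.

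Snhg8 (ENSMUSG00000104960.1, chromosome 3, 123507552 to 123508404, minus strand) had 27.5, 28.2 and 30.9 CPM in WT libraries and 26.3, 27.8 and 25.8 CPM in CD103KO libraries. CD103KO replicate 2 lay above WT replicate 1, so that the groups overlapped by this pair alone. Its log2 fold change was -0.11 (SE 0.07, 95% interval -0.26 to 0.03; edgeR adjusted p = 0.668), the widest after Malat1 and Snhg5. Among the 4 libraries without Xist reads it was -0.21 (edgeR adjusted p = 0.792). Prss12, a protease gene 955 bases away on the other strand, had a log2 fold change of 0.07 (edgeR adjusted p = 0.945).

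Zfas1 (ENSMUSG00000074578.13, chromosome 2, 167062934 to 167065862, plus strand) was the 1 gene of the 9 with a positive log2 fold change, 0.08 (SE 0.07, 95% interval -0.08 to 0.24; edgeR adjusted p = 0.774). Its levels were 23.6, 27.1 and 26.4 CPM in WT libraries and 26.1, 26.95 and 28.5 CPM in CD103KO libraries. WT replicate 1 was the lowest and CD103KO replicate 3 the highest, with the other 4 between 26.1 and 27.1 CPM. Znfx1, a zinc finger gene transcribed from the opposite strand, shares 82 exonic bases with Zfas1 and averaged 102 ± 4.999 CPM for WT and 107 ± 7.91 CPM for CD103KO, a log2 fold change of 0.06 (edgeR adjusted p = 0.812). The kit keeps strand, but whether the counting used it is not stated in the labels, so that reads of the shared bases may not be told apart. Zbtb37, opposite Gas5, shares no exonic base with it and was at 19.3 ± 2.07 and 20.3 ± 1.26 CPM.

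Snhg1 (ENSMUSG00000108414.1, chromosome 19, 8723475 to 8726443, plus strand) had 15.8, 17.5 and 16.1 CPM in WT libraries and 19.5, 14.1 and 13.1 CPM in CD103KO libraries. The CD103KO libraries lay on both sides of all WT libraries, with an SD of 3.45 CPM against 0.875 CPM in WT. The log2 fold change was -0.08 (SE 0.14, 95% interval -0.39 to 0.23; edgeR adjusted p = 0.898). Snhg5 (ENSMUSG00000097195.9, chromosome 9, 88521050 to 88522929, minus strand) had the fewest counts, 220 to 443 per library. Its levels were 3.07, 4.63 and 4.03 CPM in WT libraries and 4.15, 3.77 and 2.91 CPM in CD103KO libraries, a log2 fold change of -0.12 (SE 0.18, 95% interval -0.52 to 0.29; edgeR adjusted p = 0.879). Zfp949, a zinc finger gene and the nearest tested gene to Snhg5, 25091 bases away, was lower in all CD103KO libraries than in any WT library (11.3 ± 0.389 and 9.51 ± 0.807 CPM; log2 fold change -0.25, edgeR adjusted p = 0.437).

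Snhg6 (ENSMUSG00000098234.7, chromosome 1, 9941959 to 9944118, minus strand) had 10.5, 11.5 and 12.4 CPM in WT libraries and 11.9, 11.01 and 10.5 CPM in CD103KO libraries. The 2 lowest libraries, WT replicate 1 and CD103KO replicate 3, were level, and the log2 fold change was -0.04 (SE 0.08, 95% interval -0.23 to 0.15; edgeR adjusted p = 0.917). Snhg12 (ENSMUSG00000086290.9, chromosome 4, 132308623 to 132311024, plus strand) had 8.73, 11.5 and 10.4 CPM in WT libraries and 10.2, 10.2 and 9.63 CPM in CD103KO libraries. All CD103KO libraries lay inside the range of WT, and the log2 fold change was -0.03 (SE 0.10, 95% interval -0.26 to 0.20; edgeR adjusted p = 0.959). Trnau1ap, which acts with the selenocysteine tRNA and lies 739 bases from Snhg12, had a log2 fold change of -0.11 (edgeR adjusted p = 0.675), and Sgk3, a kinase gene near Snhg6, one of 0.03 (edgeR adjusted p = 0.893).

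Over the 9 genes, 0 were called by edgeR at an adjusted p of 0.05 in either direction, where 0.223% of all tested genes were called (30 genes; 59 when CD103KO replicate 1 was left out, 52 for WT replicate 3 and 19 for CD103KO replicate 2). At an unadjusted p of 0.05 with edgeR, 0 of the 9 and 8.73% of all genes passed. Without CD103KO replicate 1, 2 of the 9 were lower at that p, beside 6.93% of all genes. In some other settings that keep more than 1 library per group, 1 of the 9 was lower, beside 2.89% to 7.74% of all genes. These were leaving out WT replicate 1, no filter on low counts, limma-voom with or without quality weights, the replicate number as a block, and a term for Xist reads. The fit to only the libraries without Xist reads, which leaves 1 WT library, is not counted here. Its median log2 fold change of the 9 was -0.10. At an adjusted p of 0.05, DESeq2 also called 0 of the 9, beside 1.02% of all genes. In 0 of the 9 were all CD103KO libraries below all WT libraries, which held for 7.36% of tested genes, and in 0 were they all above, which held for 6.82%. The log2 fold change was negative in 8 of the 9, with a median of -0.08, beside a median of -0.00 and 51.0% negative among all genes. The direction was the same with RLE factors, upper-quartile factors and library sizes without Malat1 and mitochondrial genes, but none of these 8 differences passed the test. It was not stable to single libraries: 5 of the 9 were negative without WT replicate 2 (median -0.03) and 5 without CD103KO replicate 3 (median -0.00), and 6 without WT replicate 3 (median -0.06).

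**Figure D3:**
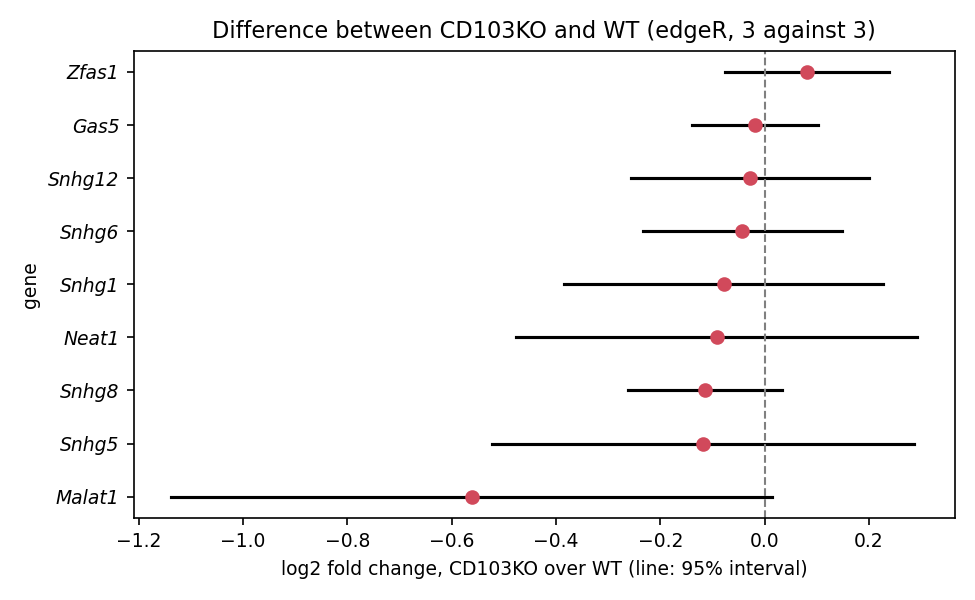
Log2 fold change of CD103KO over WT for each RNA (points, edgeR) with its 95% interval (lines), n = 3 per group. Every interval includes 0; that of Gas5 is the narrowest, from -0.14 to 0.10, and that of Malat1 the widest, from -1.14 to 0.01.

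Per kilobase of exon, taking the union of all annotated exons as the length, Snhg8 and Gas5 were the most abundant of the 9. In CPM per kilobase, Snhg8 was at 33.8 ± 2.13 in WT and 31.2 ± 1.19 in CD103KO and Gas5 at 32.5 ± 1.65 and 32.1 ± 1.73, which did not differ beyond their spread. Snhg6 (10.01 ± 0.837 and 9.72 ± 0.613), Malat1 (11.2 ± 2.92 and 7.63 ± 2.88) and Zfas1 (8.77 ± 0.621 and 9.28 ± 0.417) followed, with ranges of mean ± SD that overlapped one another. Below them by their means were Snhg1 (5.55 ± 0.295 and 5.25 ± 1.16), Snhg12 (4.25 ± 0.572 and 4.17 ± 0.141) and Snhg5 (2.26 ± 0.453 and 2.09 ± 0.368). In CD103KO the range of Snhg1 overlapped that of Malat1. Among Snhg1, Snhg12 and Snhg5, only the ranges of mean ± SD of Snhg1 and Snhg12 in CD103KO overlapped, and not their single libraries. Neat1 was the lowest, at 0.560 ± 0.0839 and 0.526 ± 0.125, over an exon union of 20771 bases. The order depends on the length used, since retained introns and long forms enter the union. With the median transcript length of each gene, a choice made after the values were seen, the mean over libraries was 193 CPM per kilobase in Gas5, 109 in Malat1 and 52.5 in Snhg8.

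The 9 RNAs ranged from steadier to more variable ones over the 6 libraries, with no set cut between them. The ratio of highest to lowest library was 1.13 in Gas5, 1.183 in Snhg6, 1.20 in Snhg8, 1.21 in Zfas1 and 1.31 in Snhg12. It was 1.49 in Snhg1, 1.59 in Snhg5, 1.65 in Neat1 and 2.73 in Malat1. In all 4 of the latter, WT replicate 2 and CD103KO replicate 1 held the 2 highest levels and CD103KO replicate 3 the lowest, which it was also in Snhg6 and Snhg8. Gas5, in contrast, was lowest in CD103KO replicate 1, and Zfas1 highest in CD103KO replicate 3. As all 7 hosts together, the ratio was 1.11, from 207 to 230 CPM.

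**Figure D4:**
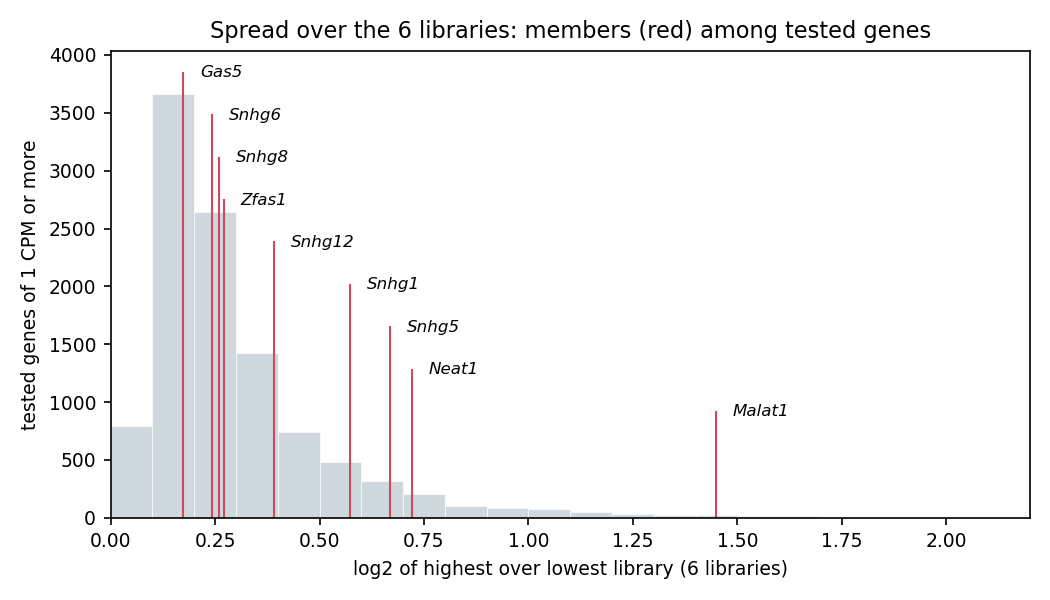
Number of tested genes of at least 1 CPM (grey, vertical axis) by the log2 ratio of their highest over their lowest library (horizontal axis), with the 9 RNAs as red lines whose heights only space the names. Gas5, at a ratio of 1.13, lies left of the median of 1.17, and Malat1 lies in the far tail at 2.73.

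Across the 6 libraries, Malat1 was compared with each of the 8 other RNAs. With Snhg1, Pearson's r was 0.86 (p = 0.0347, exact permutation, two-sided; 0.141 adjusted over the 8) and Spearman's rho 0.94 (p = 0.0167, exact permutation; 0.0667 adjusted), and r was 0.85 without the 2 libraries farthest from the median of Malat1, WT replicate 2 and CD103KO replicate 3. Neat1 had r = 0.86 (p = 0.0361, exact permutation; 0.141 adjusted) and rho = 0.83 (p = 0.0583, exact permutation; 0.156 adjusted), and Snhg5 had r = 0.81 (p = 0.0528, exact permutation; 0.141 adjusted) and rho = 0.94 (p = 0.0167, exact permutation; 0.0667 adjusted). Without those 2 libraries r was lower, 0.44 with Neat1 and 0.34 with Snhg5. So few remaining libraries cannot tell whether the relations rest on those 2. Taken as deviations from the group means, r was 0.92 with Snhg1, 0.95 with Neat1 and 0.88 with Snhg5. By that measure it was 0.67 with Snhg12, 0.64 with Snhg6, 0.01 with Snhg8, 0.01 with Zfas1 and -0.35 with Gas5. No test was made of these deviations. Gas5 (r = -0.17, p = 0.733; rho = -0.09, p = 0.919; exact permutation) and Zfas1 (r = -0.31, p = 0.572; rho = -0.26, p = 0.658; exact permutation) did not follow Malat1. Snhg6, Snhg12 and Snhg8 lay between, with r = 0.63, 0.56 and 0.44 (p = 0.182, 0.236 and 0.392, exact permutation). None of the 8 relations passed after adjustment.

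**Figure D5:**
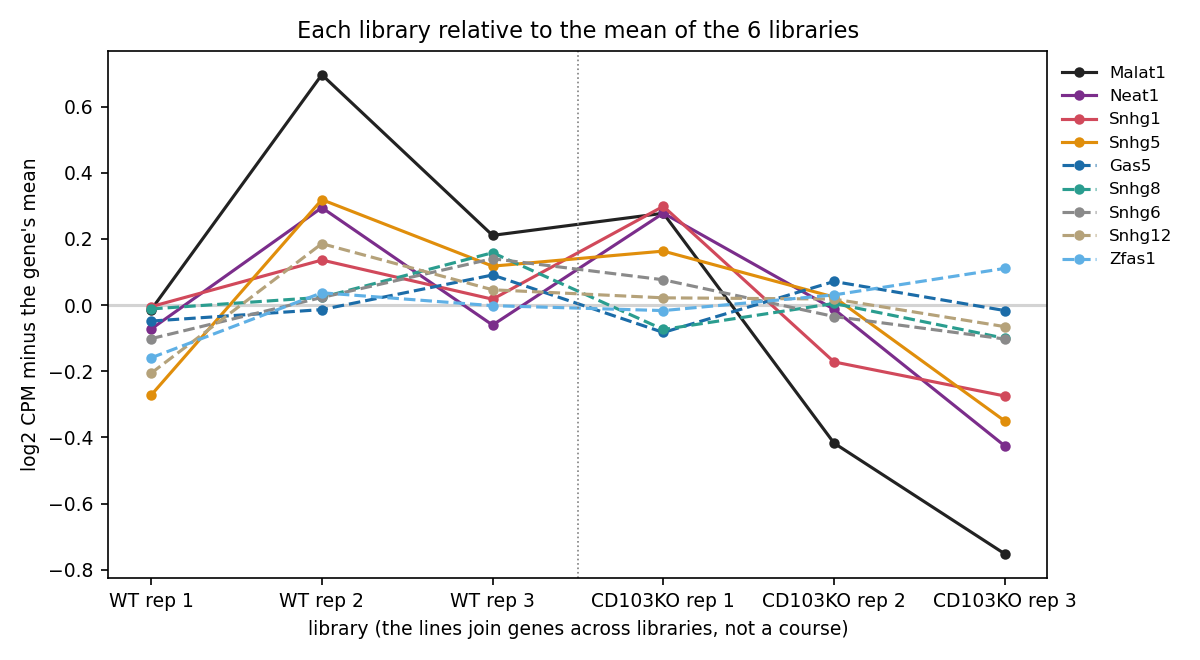
Log2 CPM of each RNA in each library minus its mean over the 6 libraries (vertical axis), with solid lines for Malat1, Neat1, Snhg1 and Snhg5 and dashed lines for the others; lines join values of 1 gene and are no time course. The solid lines are high in WT replicate 2 and CD103KO replicate 1 and low in CD103KO replicate 3, while Gas5 varies least.

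The genes with the most similar profile were sought among the 10767 genes of at least 1 CPM, by the root mean square difference of centred log2 CPM over the 6 libraries. For Malat1 these were 4930431P19Rik (0.113) and Etohd2 (0.113), and 127 genes were nearer to Malat1 than Neat1 was (0.292). Nearest to Neat1 were Slfn10-ps (0.0344) and 3110082I17Rik (0.0508), and to Snhg1 Lynx1 (0.0343) and Ctbs (0.0374). Gas5 was nearest to Trav9d-3 and Trav9n-3 (both 0.0131), T cell receptor segments that are near-identical copies with equal values and so count as 1 uncertain gene. For Zfas1 they were Nckipsd (0.0236) and Scaf11 (0.0237). Of the 9 RNAs, the one nearest to Gas5 was Snhg8 (0.0557), with 636 other genes nearer.

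Other genes of the same kinds were read from the same fit, and 0 of them in any of these lists passed the edgeR test at an adjusted p of 0.05, while DESeq2 called 1, Smarca4. Of the other snoRNA host noncoding RNAs, 9 were tested, with a median log2 fold change of 0.01 and 0 at an unadjusted p of 0.05. Snhg3 averaged 5.50 ± 0.0693 CPM for WT and 5.06 ± 0.318 CPM for CD103KO without overlap (log2 fold change -0.12, edgeR adjusted p = 0.723), and Dancr, a host with under 1 CPM, had -0.41 (edgeR adjusted p = 0.690). Of 34 protein-coding snoRNA hosts, many of them ribosomal protein genes, 15 were lower in all CD103KO libraries than in any WT library and 2 higher, beside 7.36% and 6.82% of all genes, and their median log2 fold change was -0.05. At an unadjusted p of 0.05, 5 of the 34 were lower and 2 higher, beside 4.20% and 4.53% of all genes. Leaving out CD103KO replicate 3 gave 0 in both directions, leaving out replicate 1 of CD103KO gave 2 lower and 6 higher, and leaving out its replicate 2 gave 2 lower and 1 higher. Leaving out WT replicate 1 gave 3 of each, and WT replicate 2 gave 2 of each. Leaving out WT replicate 3 gave 7 lower and 2 higher. Among only the libraries without Xist reads, which leaves 1 WT library, the median log2 fold change of the 34 was -0.07. With a term for Xist reads, 12 were lower and 2 higher at that p, beside 3.28% and 4.16% of all genes. With limma-voom 9 were lower and 2 higher (4.33% and 4.57% of all genes), and with its quality weights 8 and 2 (7.74% and 7.62%). A filter of 1 CPM gave 8 and 2 (4.78% and 4.56%), and the replicate number as a block 3 and 1 (3.296% and 3.905%). Rpl30, of the large ribosomal subunit, had a log2 fold change of -0.12 (edgeR adjusted p = 0.434) and Hspa9, the mitochondrial HSP70, 0.15 (edgeR adjusted p = 0.444). Cytosolic ribosomal protein genes as a whole held 16.3% to 16.6% of counts in WT and 15.5% to 15.9% in CD103KO, and the part of that in these 34 was not tested.

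Among 15 tested gene models of long noncoding and structural RNAs that are not snoRNA hosts, 0 reached an unadjusted p of 0.05 and the median was -0.05. Rmrp counts as 2 of these models. Without WT replicate 3, 2 were higher and 3 lower at that p, and without CD103KO replicate 1, 2 were lower. Tug1 averaged 105.5 ± 4.24 CPM for WT and 97.6 ± 5.36 CPM for CD103KO (log2 fold change -0.11, edgeR adjusted p = 0.581), and Rn7sk at 9.75 ± 3.81 and 14.2 ± 5.73 CPM (0.54, edgeR adjusted p = 0.683). The proteins that gather on Neat1 in paraspeckles, 27 genes, had a median of 0.03 and 1 gene, a higher one, at an unadjusted p of 0.05, beside 4.53% of all genes. It was 4 higher and 1 lower without CD103KO replicate 1, 3 higher without WT replicate 1 and among only the libraries without Xist reads, and 2 without WT replicate 2. The gene was Smarca4, the ATPase of BAF chromatin remodelling complexes, with 135 ± 5.49 CPM for WT and 159 ± 6.74 CPM for CD103KO (log2 fold change 0.24, adjusted p = 0.145 with edgeR and 0.00343 with DESeq2). Hnrnph3, an RNA-binding protein, had -0.13 (edgeR adjusted p = 0.593). The 24 speckle and serine/arginine splicing factors, the protein surroundings of Malat1, had a median of 0.08, with 5 higher at an unadjusted p of 0.05 (4.53% of all genes) and 6 above all WT libraries (6.82% of all genes). At that p the number higher was 13 when CD103KO replicate 1 was left out (1 of them called, and 7.21% of all genes higher at that p), 3 for WT replicate 3, 2 for CD103KO replicate 3 and 1 for CD103KO replicate 2, and 2 among only the libraries without Xist reads. Srsf11 (log2 fold change 0.17, edgeR adjusted p = 0.421) and Sf3b1 (0.16, edgeR adjusted p = 0.444) had the smallest p of these.

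The machinery that makes snoRNAs and degrades their hosts had small differences, and its counts at an unadjusted p of 0.05 changed with single libraries. The 18 core and assembly proteins of snoRNA particles had a median log2 fold change of 0.01 with 0 at an unadjusted p of 0.05, among them Nolc1, the nucleolar chaperone Nopp140 (0.12, edgeR adjusted p = 0.586), and Naf1, an H/ACA assembly factor (0.13, edgeR adjusted p = 0.675). Without CD103KO replicate 1, 4 of the 18 were higher at that p, and without WT replicate 1, 2 were. For the 20 nonsense-mediated decay factors the median was 0.05 and 1 was higher at an unadjusted p of 0.05, with Smg5 at 0.13 (edgeR adjusted p = 0.469) and Smg8 at -0.16 (edgeR adjusted p = 0.581). The number higher was 3 without CD103KO replicate 1 and 0 without WT replicate 1 or CD103KO replicate 3. Of 15 tested genes with known decay-sensitive isoforms or upstream reading frames, which share that route with Gas5, the median was 0.01 and 1 was lower at an unadjusted p of 0.05, with Eif4a2, itself a snoRNA host, at -0.15 (edgeR adjusted p = 0.500) and Gadd45a, a growth-arrest gene, at -0.21 (edgeR adjusted p = 0.693). Here 2 were higher and 3 lower without CD103KO replicate 1, and 0 in both directions without WT replicate 1 or 2 or without CD103KO replicate 2 or 3. The 26 tested factors of the nuclear exosome and RNase P, which trim snoRNAs and cut the 3′ end of Malat1, had a median of -0.01 and 0 at an unadjusted p of 0.05, with C1d at -0.11 (edgeR adjusted p = 0.647) and Rpp14 at -0.09 (edgeR adjusted p = 0.698). Without CD103KO replicate 1, 2 of these were higher and 1 lower, without WT replicate 3, 2 were lower, and without CD103KO replicate 2, 1 was. Over all genes 7.21% were higher and 6.93% lower at that p without CD103KO replicate 1, and 5.70% and 5.51% without WT replicate 3. The 13 CD8 T cell markers had a median of 0.00, with 1 higher and 2 lower at an unadjusted p of 0.05, among them Ccr7, the lymph node homing receptor, at -0.14 (edgeR adjusted p = 0.303) and Il7r, the IL-7 receptor, at -0.11 (edgeR adjusted p = 0.455).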

How the data were processed

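Libraries were made with a stranded mRNA kit after column isolation of RNA, per the labels' protocols. The submitters' processing notes name bcl2fastq 2.20, cutadapt 1.18, STAR 2.7.0f and RSEM, with GRCm38 (mm10). The annotation release and the use of strand and of multiply aligned reads in counting are not stated. The authors deposited an expected count for each gene and library, estimated from the aligned reads and not normalized. Rounding to whole numbers changed 6.48% of values. All 55450 gene identifiers matched GENCODE M21, the source of coordinates, and start windows came from RefSeq GRCm38.p6.

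edgeR 4.0.16 (R 4.3.3; filterByExpr, minimum count 10; TMM; quasi-likelihood F test on group; Benjamini-Hochberg over 13470 genes, 0.05) was the main test, checked on simulated counts. CPM used TMM-scaled library sizes, the standard error is the log2 fold change divided by the square root of F, and intervals cover 95%. Libraries of a group differed beyond sampling noise (chi-square over degrees of freedom 12.6 to 26.3). Alternatives used DESeq2 1.42.0 and limma 3.58.1. Python 3.11.15, SciPy 1.17.1 and matplotlib 3.10.9 served for permutation tests and plots. The genes and lists were chosen with earlier results of these data known. Named are, for each list, called genes or the 2 of smallest p, the nearest tested genes, overlapping genes of at least 1 CPM, snoRNAs inside hosts and genes of most similar profile; Rpph1, Rmrp, Ighm, Cd3e, Cd8a and Cd8b1 were named outside that rule, after their values were seen. The values of 1 listed gene are not reported here.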

Additional observations from a re-analysis of the deposited data

How the results depend on the processing

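None of the 9 RNAs was called under any of the 19 alternatives, and their smallest adjusted p was 0.124 (Malat1 with edgeR, leaving out CD103KO replicate 1). The median log2 fold change of the 9 was -0.13 to -0.00 with each library left out in turn. Of 171 combinations of gene and alternative, 12 had the other sign, none called and none beyond 0.072. Apart from single libraries, these were Gas5 with limma-voom quality weights (0.031) and Neat1 with a term for libraries with Xist reads (0.035) or with only the libraries without them (0.035). With each library left out in turn, the log2 fold change was -0.063 to 0.022 in Gas5, -0.273 to 0.072 in Neat1, -0.275 to 0.029 in Snhg1, -0.263 to 0.021 in Snhg5, -0.101 to 0.018 in Snhg6 and -0.127 to 0.063 in Snhg12, and -0.91 to -0.34 in Malat1.

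Over all genes, 30 were called, and 112 with no filter, 137 with DESeq2, 50 with limma-voom quality weights, 15 with the Xist term, 13 with only the libraries without Xist reads, 19 at an adjusted p of 0.01 and 19 to 59 with each library left out; the cause was not tested. With the replicate number as a block, 24 genes and 0 of the 9 were called and the log2 fold change of Malat1 was -0.60 (edgeR adjusted p = 0.692). The numbers share no stated source, and same-numbered libraries had correlations of -0.20, -0.01 and -0.03 of their deviations from the group means, so they were not treated as pairs. Levels per kilobase moved beyond the SD in 15 of the alternatives of length, chosen after seeing the data. Of the 30 snoRNA gene models, 21 had no count, so that no change in them could be seen in these libraries, which do not measure mature snoRNAs.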
